A study of Mus musculus with 2 samples.

Results

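Hepatocyte barcodes with a high share of mitochondrial RNA were described in mouse liver, profiled by single-cell RNA-seq in 2 libraries. A barcode marks 1 droplet, and each captured molecule carries a unique molecular identifier (UMI). Barcodes were taken as hepatocytes when they had at least 5000 UMIs, drew at least 1% of them from Alb (albumin), and showed fewer than 3 of 15 markers of other liver cells. Among these, barcodes with more than 25% and up to 50% of their UMIs from mitochondrially encoded genes were the high-mitochondrial barcodes. WT liver had 427 of them and HKO liver 290, together 717 of the 50078 barcodes deposited. Barcodes of the same rule with more than 2.5% and up to 25% mitochondrial UMIs served as the reference, 1062 in WT and 967 in HKO. The barcodes were thus chosen by their mitochondrial share, Alb and the markers, and these values are given as a description without a test.

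The study compared WT mice with mice in which miR-33, a microRNA of lipid metabolism, was deleted in hepatocytes (HKO). Deletion used floxed miR-33 alleles and Cre under the albumin promoter (AlbCRE), which is active in hepatocytes. All mice were males that were fed a high-fat diet lacking choline (CD-HFD) for 6 months from 8 weeks of age, and no strain was given in the sources used here. Each library was 1 pool of 3 livers, with hepatocytes and sorted non-parenchymal cells mixed in equal numbers, so no test between genotypes was possible. The labels name version 2 of the droplet kit for both libraries, but the HKO barcode sequences resemble those of a later version, and those of WT were not used here, so a difference in kit cannot be told apart from genotype.

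Mitochondria hold their own small genome, which encodes 13 proteins of the respiratory chain and ATP synthase, and these transcripts are made and kept inside the organelle. The other subunits of the same complexes are encoded in the nucleus, translated on cytosolic ribosomes and imported. Hepatocytes are rich in mitochondria, and in droplet assays a high mitochondrial share is widely used as a sign of poor cell quality. The 3 transcripts that mark these barcodes are encoded on the plus strand of the mitochondrial genome, and the last 30 bases of each annotated gene are shown because they differ in how the reading frame ends. Capitals mark a full stop codon or the bases left past the last full codon (GENCODE M21, GRCm38).
mt-Nd5, chrM:13536-13565: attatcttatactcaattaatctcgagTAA
mt-Co3, chrM:9361-9390: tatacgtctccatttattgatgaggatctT
mt-Cytb, chrM:15259-15288: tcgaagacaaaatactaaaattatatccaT
The annotated mt-Nd5 gene ended in a full stop codon, whereas mt-Co3 and mt-Cytb ended in a lone T, which the poly(A) tail is known to complete to a stop codon.

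The mitochondrial share summed over barcodes was 33.9% in the WT high-mitochondrial barcodes and 12.8% in their reference, and 36.1% and 13.3% in HKO. mt-Co3, a subunit of complex IV, made up 4.74% of all UMIs in WT high-mitochondrial barcodes against 1.75% in the reference, and 5.80% against 2.14% in HKO. mt-Cytb, the mitochondrially encoded subunit of complex III, made up 3.29% against 1.27% in WT and 3.15% against 1.21% in HKO. mt-Nd5, a subunit of complex I, made up 0.759% against 0.239% in WT and 0.781% against 0.225% in HKO. The selected transcripts thus stood well above the reference in both libraries, as the rule required. The mix of mitochondrial transcripts was close to that of the reference for most genes. mt-Co1 was 17.4% of mitochondrial UMIs in both WT classes and 20.2% against 20.1% in HKO. Departures were largest for mt-Atp8, whose share of mitochondrial UMIs was 1.27-fold that of the reference in WT and 1.42-fold in HKO, for mt-Nd5 with 1.20-fold and 1.28-fold, for mt-Nd4l with 1.14-fold and 1.25-fold, and for mt-Nd1 with 0.832-fold and 0.776-fold. All of these 95% intervals excluded 1 by counting error alone. mt-Nd6, the only one of these genes on the minus strand, was rare, with 0.201% of mitochondrial UMIs in WT high-mitochondrial barcodes and 0.252% in HKO.

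High-mitochondrial barcodes were a similar fraction of hepatocyte barcodes in both libraries, 20.1% in WT (95% Clopper-Pearson interval 18.4 to 21.9%) and 19.96% in HKO (17.9 to 22.1%). These intervals cover counting error only. With a minimum of 10000 UMIs the fractions of all hepatocyte barcodes separated to 25.2% and 10.1%. The median depth of the members was 16737 UMIs in WT, near the 18324 of the reference, and 7886 UMIs in HKO against 12764. Split by origin, the median member held 5966 mitochondrial and 10709 other UMIs in WT, against 2169 and 15911 in the reference. In HKO it held 2918 mitochondrial and 4990 other UMIs, against 1703 and 10939. High-mitochondrial barcodes therefore had more mitochondrial UMIs and also fewer other UMIs than reference barcodes in both libraries. After thinning every barcode to 2500 non-mitochondrial UMIs, the median member showed 1257 genes in WT against 1211 in the reference, and 1304 against 1173 in HKO. Without thinning the order was opposite, with 3207 against 3898 genes and 2054 against 3032.

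The label was set beside 18 genes of hepatocyte identity. All 18 were measured in both libraries, and together they made up 35010 counts per 1000000 non-mitochondrial UMIs (CPM) in WT high-mitochondrial barcodes against 34550 in the reference, and 30410 against 35050 in HKO. The 15 markers of the rule summed to 51.3 CPM against 52.6 in WT and 41.4 against 34.9 in HKO. In HKO members, 3 of the 15 (Cd79a, Eng and Epcam) were at 0, which allows up to 1.88 CPM each. A further list of 16 markers of immune, endothelial, stellate and bile duct cells summed to 247.7 CPM against 179.2 in WT and 77.8 against 318.8 in HKO, with 2 of them (Krt7 and S100a8) at 0 in the WT members and 4 (Krt7, Krt19, Nkg7 and Col1a1) in the HKO members. Igkc, an antibody light chain gene, made up 154.9 of these CPM in the WT members and 184.9 in the HKO reference, and 1 barcode held 736 of its 809 UMIs in the WT members and another 2118 of its 2232 in the HKO reference. Hemoglobin genes summed to 11.3 CPM against 277.1 in WT and 20.7 against 39.8 in HKO, and 1 barcode carried 1460 of the 3189 Hbb-bs UMIs of the WT reference. The part of these markers in the results below was not tested. Free RNA is also captured in every droplet. In barcodes of the commonest depth (2570 UMIs in WT and 813 in HKO, taken here as mostly free RNA) the median mitochondrial share was 3.02% and 6.56%. The 18 identity genes made up 33160 CPM there in WT and 30070 in HKO, so their summed level does not tell members from free RNA.

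Outside the mitochondrial genome, high-mitochondrial barcodes differed from the reference across a large part of the transcriptome. UMIs were summed per library and class, which gave 4 sums, and edgeR's quasi-likelihood test compared the classes within libraries with Benjamini-Hochberg adjustment. Of 7581 genes tested, 4488 (59.2%) were called at an adjusted p under 0.05, with 2780 (36.7%) higher and 1708 (22.5%) lower. Because the fit has 1 residual degree of freedom and each library is a single pool, the only replication is the spread between 2 libraries. For each gene, edgeR moderates this spread with a value shared across genes (16.76 prior degrees of freedom). These p-values therefore rest mostly on that shared value. The direction was the same in both libraries for 6745 genes, and 3105 genes (41%) differed by 1.5-fold or more in both, 1851 (24.4%) of them upward and 1254 (16.5%) downward. These values are relative to all non-mitochondrial UMIs. The median gene had a log2 ratio of 0.21 on this scale, and TMM scaling moved all log2 ratios down by 0.22 and changed the split of calls to 2215 (29.2%) higher and 2434 (32.1%) lower, 61.3% in all. Relative to all UMIs, where the mitochondrial ones take part of the total, 1490 (19.7%) were higher and 2979 (39.3%) lower, 59% in all. Changes of gene lists are therefore read against that median.

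**Figure D1:**
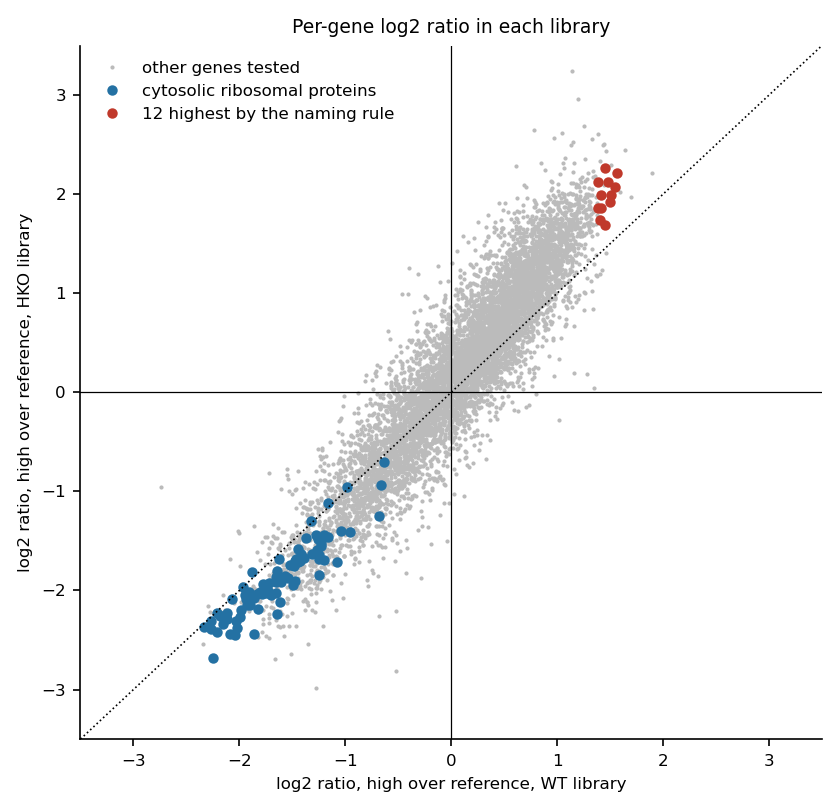
Log2 ratio of each tested gene, high-mitochondrial over reference barcodes, in the WT library (x axis) and the HKO library (y axis), from CPM. Grey points are single genes, blue points the 80 cytosolic ribosomal protein genes and red points the 12 highest genes. Points run along the diagonal, more steeply in HKO, with all 80 ribosomal protein genes in the lower left quadrant, and 6 genes lie outside the axes.

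The genes with the highest ratios in both libraries included Snx29, Kcnq1ot1, 5730522E02Rik, Gm31508, Grm8, Ror1, Tshz2, Caln1, Tmtc2, Abtb2 and Hnf4aos. The 12 highest are all long transcription units, with annotated spans of 47914 bp or more, and 3 of them (Kcnq1ot1, Gm31508 and Hnf4aos) are noncoding. Kcnq1ot1 and Hnf4aos are antisense to other genes, and whether counting used the strand was not given in the sources used here. Ror1, a receptor tyrosine kinase, stood at 174.8 CPM in high-mitochondrial barcodes and 63.8 CPM in the reference in WT, and at 233.5 and 48.6 CPM in HKO, a fitted 3.59-fold difference (edgeR adjusted p = 1.69e-06). Snx29, a sorting nexin, had 76.95 and 26.0 CPM in WT and 87.3 and 18.8 CPM in HKO (3.62-fold, edgeR adjusted p = 1.28e-06). For both genes the members of each library lay above both reference sums.

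The genes with the lowest ratios in both libraries were Ost4, Rps15a, Rpl35, Rpl6, Rpl10, Gng5, Rpl34, Rpl31, Pdap1, Rps13, Nme2 and Rpl36a. All 12 are compact, with spans of 1904 to 11817 bp, and 8 of them encode proteins of the cytosolic ribosome, a family with many near-identical pseudogenes that can share reads. Rps15a, of the small ribosomal subunit, had 114.3 CPM in WT high-mitochondrial barcodes and 577.0 in the reference, and 136.9 against 708.2 in HKO. Its ratio was 0.198 in WT (0.182 to 0.215) and 0.193 in HKO (0.168 to 0.221; edgeR adjusted p = 1.38e-08), so both members' sums were far below both reference sums. Ost4, a small subunit of the complex that adds sugars to proteins in the ER, had 44.6 against 226.0 CPM in WT and 25.1 against 145.7 in HKO (edgeR adjusted p = 6.15e-08).

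All 80 tested genes of cytosolic ribosomal proteins were lower, where 22.5% of all genes were, with a median log2 ratio of -1.65 in WT and -1.92 in HKO. Their summed level was 15860 CPM against 49160 in WT and 16150 against 59670 in HKO. Even one of the least affected genes, Rpl8 with 233.1 against 368.9 CPM in WT and 217.8 against 417.1 in HKO, passed the test (edgeR adjusted p = 2.97e-04). Translation factors, a list picked after the values had been seen, gave 19 lower and 0 higher of 22 with a median of -1.05, again beside 22.5% lower of all genes. Naca, which binds nascent proteins at the ribosome, was lower (0.297-fold, edgeR adjusted p = 2.59e-07). Eef2, the factor that moves the ribosome along, was 357.7 against 412.3 CPM in WT and 425.6 against 490.1 in HKO and did not pass (edgeR adjusted p = 0.222). Proteasome core subunits, also listed after the values had been seen, had 13 lower and 0 higher of 14 (median -0.72, beside the same 22.5%), among them Psma7 at 0.318-fold.

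Of the 75 tested nuclear subunits of complexes I to V, 68 were lower and 1 was higher, beside 22.5% and 36.7% of all genes, with a median log2 ratio of -1.01 in WT and -1.42 in HKO. The list fell in every complex: 31 of 36 in complex I (median -1.19), 4 of 4 in complex II (-0.88), 8 of 9 in complex III (-1.36), 9 of 10 in complex IV (-1.20) and 16 of 16 in complex V (-1.50). Complex II, which has no mitochondrially encoded subunit, had the smallest median. Atp5e, the smallest subunit of the ATP synthase rotor, had 339.9 CPM against 1164 in WT and 278.1 against 1274 in HKO (0.254-fold, edgeR adjusted p = 2.75e-08). Cox5b of complex IV had 136.9 against 418.5 CPM in WT and 96.7 against 500.2 in HKO (0.257-fold, edgeR adjusted p = 2.90e-07). Levels of both genes in the members were less than those of either reference sum. Uqcrb and Uqcr10 of complex III (0.268-fold and 0.274-fold) and Ndufc1 of complex I (0.266-fold) were close to these. Sdha of complex II (0.644-fold) and the ATP synthase subunit Atp5b (0.578-fold) had smaller differences. Uqcrc2 was the one subunit called higher (1.45-fold, edgeR adjusted p = 0.0134), with 276.8 against 160.4 CPM in WT and 159.5 against 133.4 in HKO, and TMM scaling ended that call.

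**Figure D2:**
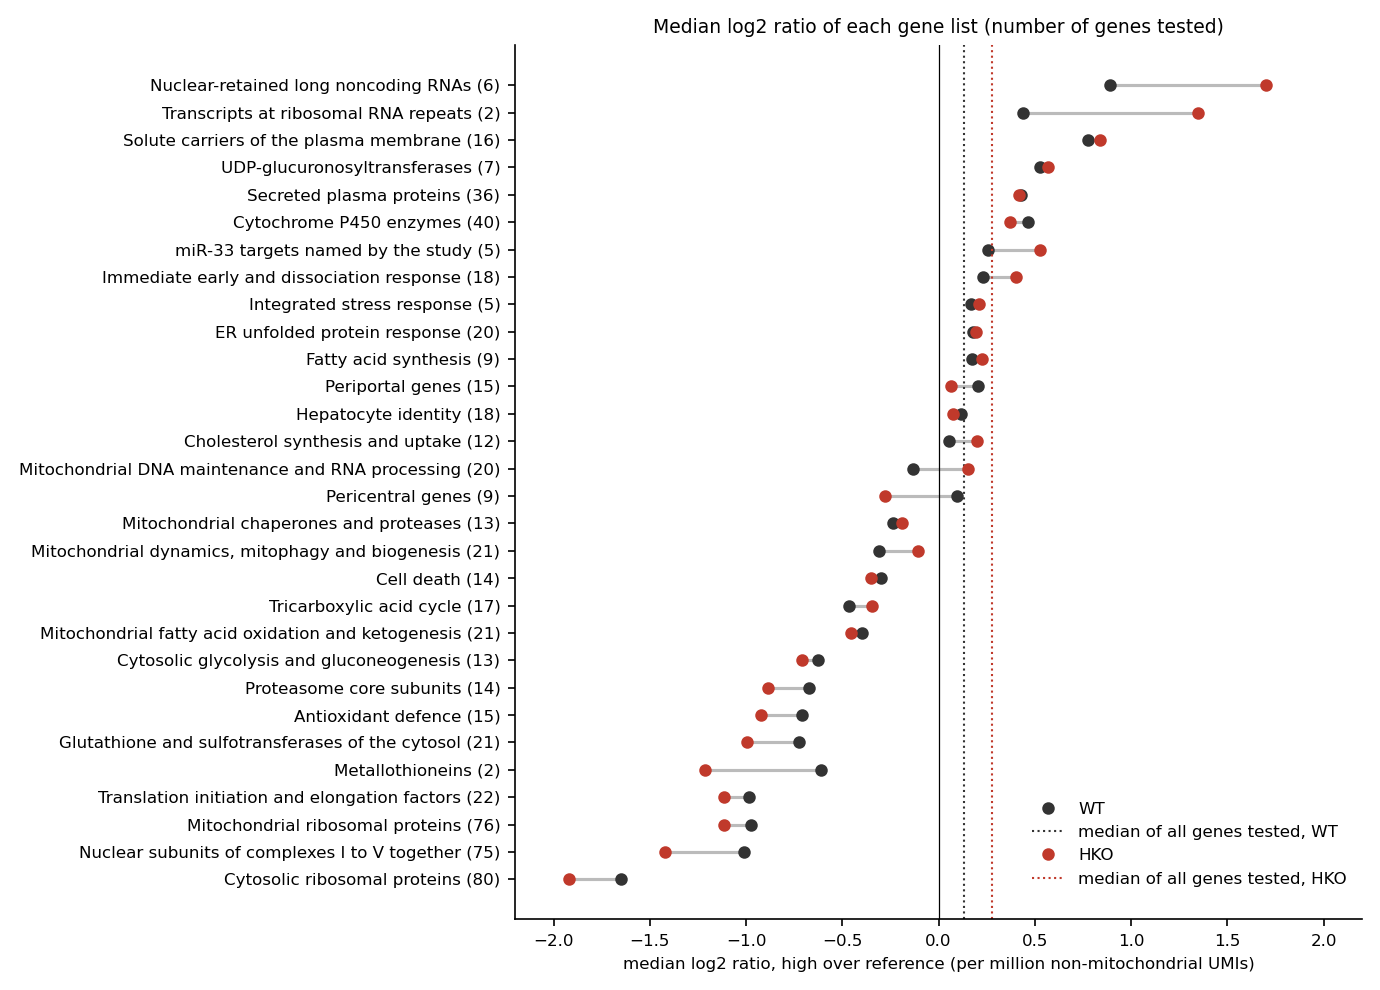
Median log2 ratio of each gene list, high-mitochondrial over reference barcodes, in WT (black) and HKO (red), with the number of tested genes in brackets and dotted lines at the median of all 7581 genes. Hemoglobin and other-cell markers are not drawn. Of the lists drawn, cytosolic ribosomal proteins and nuclear subunits of complexes I to V lie lowest and nuclear-retained long noncoding RNAs highest, in both libraries.

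Other mitochondrial gene lists fell less or showed both directions. Mitochondrial ribosomal proteins, which translate the mitochondrial transcripts, had 63 lower and 1 higher of 76 (median -1.05), beside 22.5% and 36.7% of all genes, with Mrps24 at 0.251-fold and Mrpl34 at 0.266-fold. Mrps9 was the one called higher, with 31.97 against 24.7 CPM in WT and 42.7 against 23.4 in HKO (edgeR adjusted p = 0.0210), a call that TMM scaling ended. Among 20 genes of mitochondrial DNA maintenance and RNA processing, 6 were lower, near the 22.5% of all genes, and 3 higher, below the 36.7% of all genes (median 0.01). Slirp and Lrpprc, whose proteins form 1 complex that stabilises mitochondrial mRNAs, lay on opposite sides. Slirp, a compact gene, had 27.6 against 82.6 CPM in WT and 17.6 against 96.5 in HKO (edgeR adjusted p = 2.49e-06), whereas Lrpprc, a long gene, had 154.7 against 105.5 and 173.9 against 92.3 (edgeR adjusted p = 1.93e-03). Of 13 mitochondrial chaperones and proteases, 3 were lower, including Grpel1 and Hspe1 (0.316-fold and 0.456-fold), and Spg7, a protease of the inner membrane, was higher (1.64-fold, edgeR adjusted p = 2.82e-03). The 3 of 13 are about the 22.5% of all genes called lower, and TMM scaling called 8 lower and 1 higher. Of 21 genes of mitochondrial dynamics, mitophagy and biogenesis, 7 were lower and 6 higher (11 and 5 with TMM scaling), not far from the 22.5% and 36.7% of all genes. The lower ones included Fis1 (0.430-fold) and Map1lc3b (0.471-fold), and the higher ones included the biogenesis coactivators Ppargc1a (1.72-fold) and Ppargc1b (2.60-fold).

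Lists of matrix and cytosolic energy metabolism are to be read against the 22.5% of all genes called lower and the 36.7% called higher. Tricarboxylic acid cycle genes had 8 lower and 0 higher of 17 (median -0.41), for example Suclg1 at 0.489-fold and Idh3b at 0.516-fold. Mitochondrial fatty acid oxidation genes had 13 lower and 2 higher of 21 (median -0.43). Eci1, an isomerase of this pathway, was 0.546-fold and Etfb, an electron carrier, 0.586-fold, whereas Eci2 was 1.36-fold and Cpt1a, the gatekeeper of fatty acid import, 1.30-fold (edgeR adjusted p = 0.0196 and 0.0342). Both higher calls were lost with TMM scaling. Glycolytic genes had 8 lower and 0 higher of 13, with Gapdh at 217.3 against 654.0 CPM in WT and 209.7 against 725.9 in HKO (0.311-fold, edgeR adjusted p = 1.49e-07) and Eno1 at 0.497-fold. Antioxidant genes had 12 lower and 0 higher of 15, among them Txn1 (thioredoxin, 0.338-fold) and Prdx5 (a peroxiredoxin, 0.436-fold). Both metallothioneins, Mt1 and Mt2, were lower (0.415-fold and 0.684-fold).

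Nuclear-retained long noncoding RNAs were higher. Of 6 tested, 5 were called higher and 0 lower, where 36.7% of all genes were higher, with a median log2 ratio of 0.89 in WT and 1.70 in HKO. Malat1, an abundant RNA of nuclear speckles on chromosome 19 (5795690 to 5802672), had 10460 CPM in WT high-mitochondrial barcodes, 5192 in the WT reference, 12370 in HKO high-mitochondrial barcodes and 3417 in the HKO reference. Both members' sums exceeded both references, by 2.01-fold in WT and 3.62-fold in HKO (edgeR adjusted p = 1.17e-06). Neat1, the scaffold of paraspeckles, had 1103 against 452.9 CPM in WT and 1877 against 479.9 in HKO (3.08-fold, edgeR adjusted p = 4.38e-07). Kcnq1ot1, Ftx and Pvt1 were called higher too, and Tug1 had 20.9 against 18.8 CPM in WT and 30.1 against 17.2 in HKO without passing (edgeR adjusted p = 0.113). Gm42418 and AY036118, which lie at ribosomal RNA repeats, were also higher (1.92-fold and 1.74-fold). Nuclear noncoding RNA also stood out in UMIs per barcode, with no scaling. The mean member held 143.4 UMIs of this list against 117.7 in the WT reference and 79.2 against 49.4 in HKO. The same mean for cytosolic ribosomal proteins was 194.0 against 1011 UMIs in WT and 88.7 against 744.9 in HKO. For all non-mitochondrial genes it was 0.595-fold that of the reference in WT and 0.440-fold in HKO.

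Of 36 secreted plasma protein genes, 20 were higher and 7 lower (median 0.42), where 36.7% of all genes were higher. The higher ones included Itih1 (2.15-fold), which binds hyaluronan, and Fetub (2.07-fold), a protease inhibitor, and the lower ones included Apoc1, a small apolipoprotein, with 8149 against 20190 CPM in WT and 7145 against 24050 in HKO (0.346-fold, edgeR adjusted p = 3.06e-08). Rbp4 and Ttr, which carry retinol and thyroid hormone, were lower as well (0.520-fold and 0.633-fold). Cytochrome P450 enzymes had 22 higher and 0 lower of 40 (median 0.41), among them Cyp2j9 (2.90-fold) and Cyp4f13 (2.43-fold). The medians of the plasma protein and P450 lists turned to -0.0032 and -0.013 relative to all UMIs. With TMM scaling, 12 plasma protein genes were higher and 7 lower, and 14 P450 genes were higher and 5 lower, near the 29.2% higher of all genes on that scale.

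The next 3 lists were chosen after their values had been seen, and of all genes 36.7% were higher and 22.5% lower. Of 7 UDP-glucuronosyltransferases, which are enzymes of the ER membrane, 5 were higher and 0 lower, for example Ugt2b5 (1.84-fold), and with TMM scaling 3 were higher, where 29.2% of all genes were. Of 21 glutathione S-transferases and sulfotransferases, which are mostly cytosolic, 18 were lower and 0 higher (median -0.89), for example Gstp1 (0.239-fold) and Gsta1 (0.350-fold). Of 16 plasma membrane transporters, 13 were higher and 1 lower (median 0.82). Slc7a2, an arginine transporter, had 1581 against 720.6 CPM in WT and 2338 against 750.7 in HKO (2.61-fold, edgeR adjusted p = 8.41e-07), and Abcc2, a canalicular export pump, was 2.49-fold. The exception was Slc10a1, the bile acid uptake carrier, at 0.657-fold.

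Of the 18 hepatocyte identity genes, 5 were higher and 2 lower (median 0.10), below the 36.7% and 22.5% of all genes. With TMM scaling 3 were higher and 5 lower, beside 29.2% and 32.1% of all genes. The nuclear receptors Nr1i3 and Nr1i2, which control drug metabolism, were higher (2.22-fold and 2.17-fold), and Hpd, of tyrosine breakdown, was lower (0.616-fold). Periportal genes had 6 higher and 3 lower of 15, near the 36.7% and 22.5% of all genes, and with TMM scaling 0 higher and 4 lower. They split within the urea cycle, with Cps1 at 1.56-fold and Ass1 at 0.695-fold. Pericentral genes had 0 higher and 3 lower of 9, where 22.5% of all genes were lower, and their median was 0.10 in WT and -0.28 in HKO. The lower ones included Oat, of ornithine metabolism, with 54.2 against 144.1 CPM in WT and 141.2 against 388.4 in HKO, and Rgn (0.357-fold). Fatty acid synthesis had 4 higher and 0 lower of 9, beside 36.7% and 22.5% of all genes. Its median was 0.18, about the 0.21 of all genes. The higher ones included Srebf1, the transcription factor of lipogenesis (2.16-fold), and Acaca, acetyl-CoA carboxylase (2.53-fold). In cholesterol synthesis and uptake, Idi1 and Hmgcs1, both of the synthesis pathway, were lower (0.405-fold and 0.601-fold), out of 12 tested, beside 22.5% lower of all genes.

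Stress lists were mixed. Of 18 immediate early and dissociation genes, 8 were higher and 2 lower (median 0.32, near the 0.21 of all genes), where 36.7% of all genes were higher. With TMM scaling 5 were higher and 3 lower, and relative to all UMIs 3 were higher and 5 lower. Atf3, a stress-induced transcription factor, had 338.6 against 163.9 CPM in WT and 251.7 against 97.6 in HKO (2.30-fold, edgeR adjusted p = 1.22e-05) and Nr4a1 was 2.35-fold, whereas the heat shock gene Dnajb1 was lower (0.567-fold). Of 20 genes of the ER unfolded protein response, 5 were higher, including Hyou1 (1.71-fold), and 3 lower, including Manf (0.612-fold), whereas TMM scaling called 2 higher and 6 lower. The counts of 5 and 3 are below the 36.7% and 22.5% of all genes. Of 5 tested genes of the integrated stress response, the stress hormone Gdf15 was higher (1.81-fold) and Atf5 lower (0.693-fold). Of 14 cell death genes, 6 were lower and 1 higher, beside 22.5% and 36.7% of all genes. Cycs, cytochrome c, had 83.7 against 227.7 CPM in WT and 59.6 against 209.9 in HKO (0.328-fold, edgeR adjusted p = 2.02e-06).

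Direction went with the length of the gene. Tested genes were ordered by annotated span (7576 of 7581 had one) and divided into 10 groups of equal size. In the group of shortest genes, with a median span of 3288 bp, the median log2 ratio was -0.72 in WT and -0.92 in HKO, and 63.7% of genes were lower and 7.39% higher. In the group of longest genes, with a median span of 208636 bp, it was 0.89 in WT and 1.38 in HKO, and 90.4% were higher and 0.792% lower. The median increased from each group to the next in both libraries. Without the genes of cytosolic and mitochondrial ribosomes and of complexes I to V, the medians of these outer groups, averaged over both libraries, were still -0.66 and 1.13. Across genes, Spearman's rho between span and log2 ratio was 0.622 in WT and 0.655 in HKO, and 0.503 and 0.519 with exon length (genes are not independent replicates). Of 84 lincRNAs, 48 (57.1%) were higher, where 36.7% of all genes were, and 17 lower, about the 22.5% of all genes. Whether UMIs from introns were counted was not given in the sources used here, although the version of Cell Ranger used counts them by default.

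**Figure D3:**
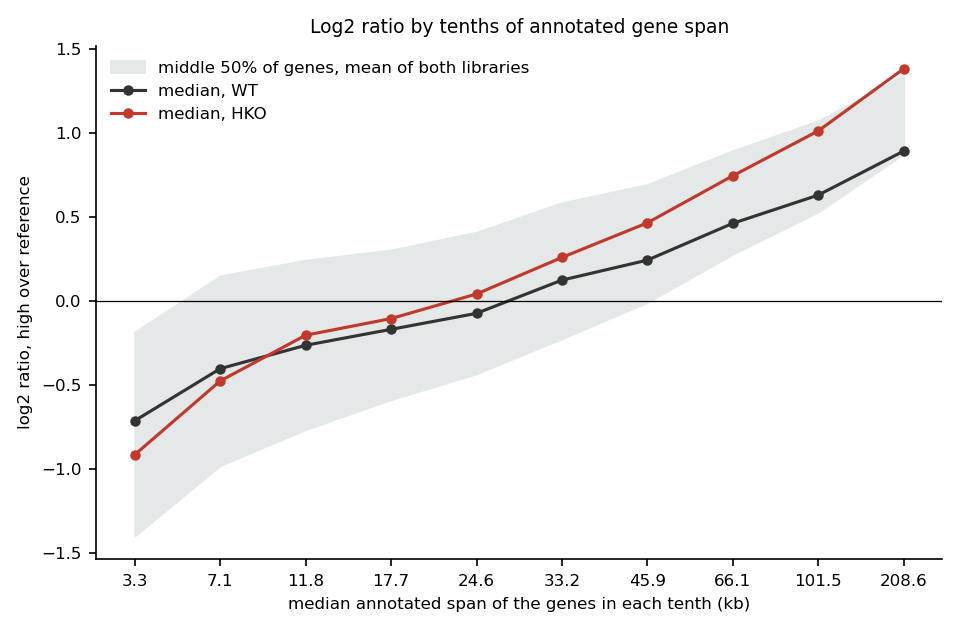
Median log2 ratio, high-mitochondrial over reference barcodes, for 10 groups of genes by annotated span (x axis, median span in kb), in WT (black) and HKO (red), with the middle 50% of genes shaded. The median goes from -0.72 to 0.89 in WT and from -0.92 to 1.38 in HKO.

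The levels were followed over steps of mitochondrial share. Around the threshold of the rule, at 20 to 25% and 25 to 30%, the ribosomal protein share of non-mitochondrial UMIs was 2.61% and 1.66% in WT (135 and 115 barcodes) and 4.42% and 2.28% in HKO (107 and 64 barcodes). Most of the decline in WT therefore lay below the threshold, from 5.39% at 10 to 15%, whereas in HKO the share went on to 1.24% at 40 to 50%. Nuclear noncoding RNAs followed no single direction. Below the reference, at up to 2.5%, they stood at 0.606% in WT and 0.962% in HKO, the latter close to the level of HKO members at 25 to 30%. At 2.5 to 5% they stood at 0.745% in WT and 0.646% in HKO. They were lowest at 10 to 15% and then went from 0.410% to 1.01% at 20 to 25% and 1.21% at 25 to 30% in WT, and from 0.328% to 0.638% and 1.05% in HKO. Past the upper limit of the rule, at over 50%, they were 0.782% in WT, where ribosomal proteins were back at 2.85%, and 1.67% in HKO, where ribosomal proteins were 1.54%. Nuclear subunits of complexes I to V went from 3.51% at 10 to 15% to 1.60% at 25 to 30% in WT and from 3.77% to 1.64% in HKO. Hepatocyte identity genes stayed between 3.32% and 3.66% in WT and between 2.94% and 3.64% in HKO over the same steps up to 50%. In barcodes of free RNA depth, ribosomal proteins made up 4.30% in WT and 4.14% in HKO, above every step over 25%, and nuclear noncoding RNAs 0.299% and 0.491%, below every such step.

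**Figure D4:**
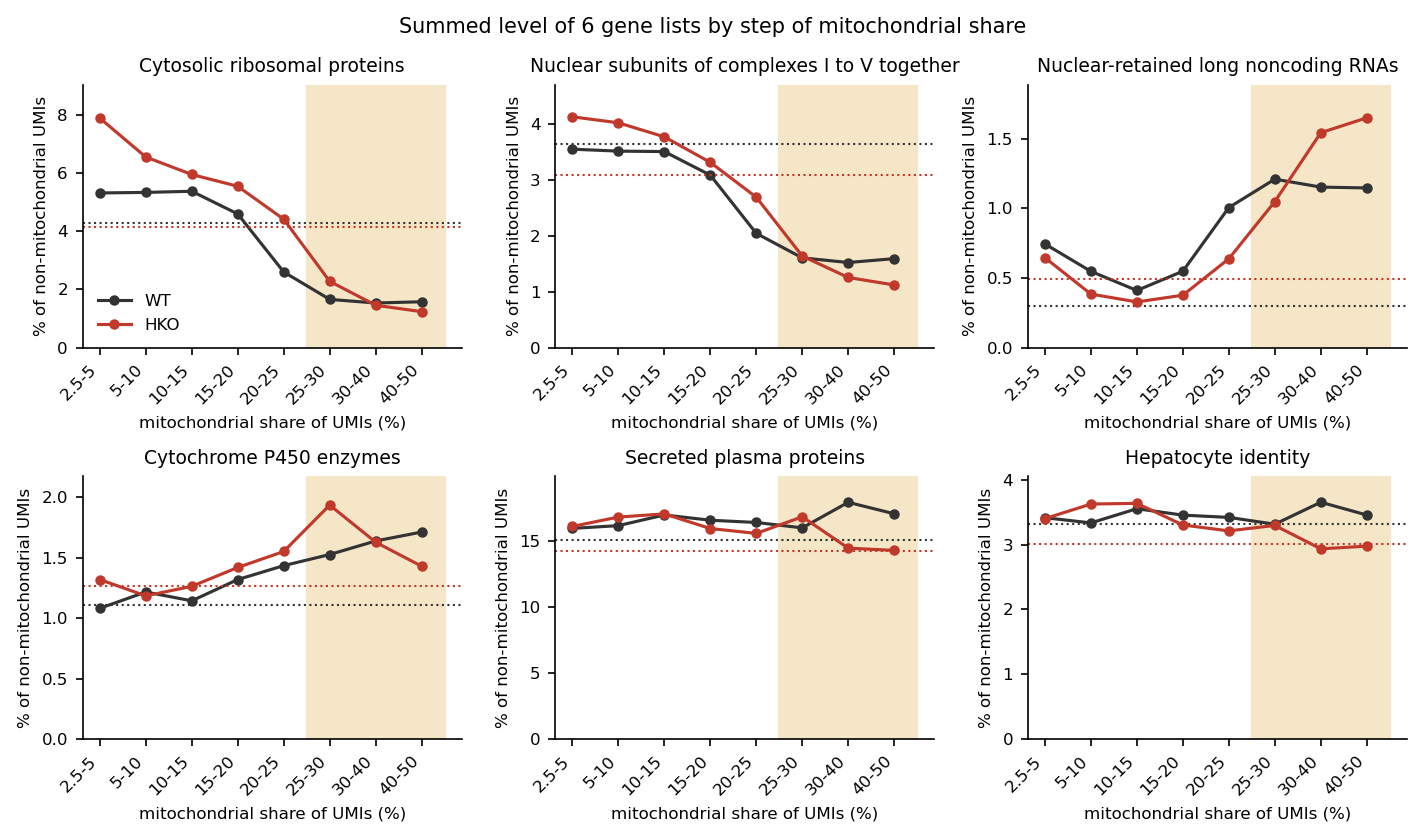
Summed share of 6 gene lists in non-mitochondrial UMIs (y axis, percent) by step of mitochondrial share (x axis, percent of all UMIs) in WT (black) and HKO (red). Shading marks the high-mitochondrial steps and dotted lines the level in barcodes of free RNA depth. Ribosomal proteins and nuclear-encoded subunits decline and nuclear noncoding RNAs increase across the threshold, while hepatocyte identity genes stay between 2.94 and 3.66% from 2.5 to 50% mitochondrial share.

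In single barcodes, the ribosomal protein share had a median of 1.38% (quartiles 1.09 and 2.03%) in WT members and 4.69% (2.71 and 6.02%) in reference barcodes, and 1.14% (0.871 and 1.66%) against 5.91% (4.91 and 7.14%) in HKO. Only 6 of the 427 WT members and 11 of the 290 HKO members lay above the reference median. The nuclear noncoding RNA share had a median of 1.00% against 0.263% in WT and 1.33% against 0.133% in HKO. Members fell into more than one pattern. In WT, 273 members (63.9%) had a ribosomal share under the lower quartile of the reference together with a nuclear RNA share over its upper quartile, and 59 (13.8%) had the low ribosomal share with a nuclear RNA share under the reference median. In HKO these were 241 (83.1%) and 17 (5.86%). The first pattern was not confined to the members, since 183 reference barcodes in WT (17.2%) and 143 in HKO (14.8%) had it, at a median mitochondrial share of 17.0% and 16.5%. The second was in 31 reference barcodes in WT (2.92%) and 48 in HKO (4.96%), the latter near the 5.86% of HKO members. Within the members, the share of ribosomal proteins went with that of nuclear subunits of complexes I to V (Spearman's rho 0.852 over 427 WT barcodes and 0.820 over 290 HKO barcodes, with library and depth in common) and opposite to nuclear noncoding RNAs (-0.608 and -0.455). Reference barcodes showed both relations too, with rho of 0.702 in WT and 0.486 in HKO for the nuclear subunits. For nuclear noncoding RNAs it was -0.566 and -0.472 in the reference. The plasma protein share had a median of 16.7% against 16.2% in WT and 14.2% against 16.5% in HKO. Between the ribosomal and the mitochondrial share of the members, rho was 0.103 in WT and -0.206 in HKO.

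**Figure D5:**
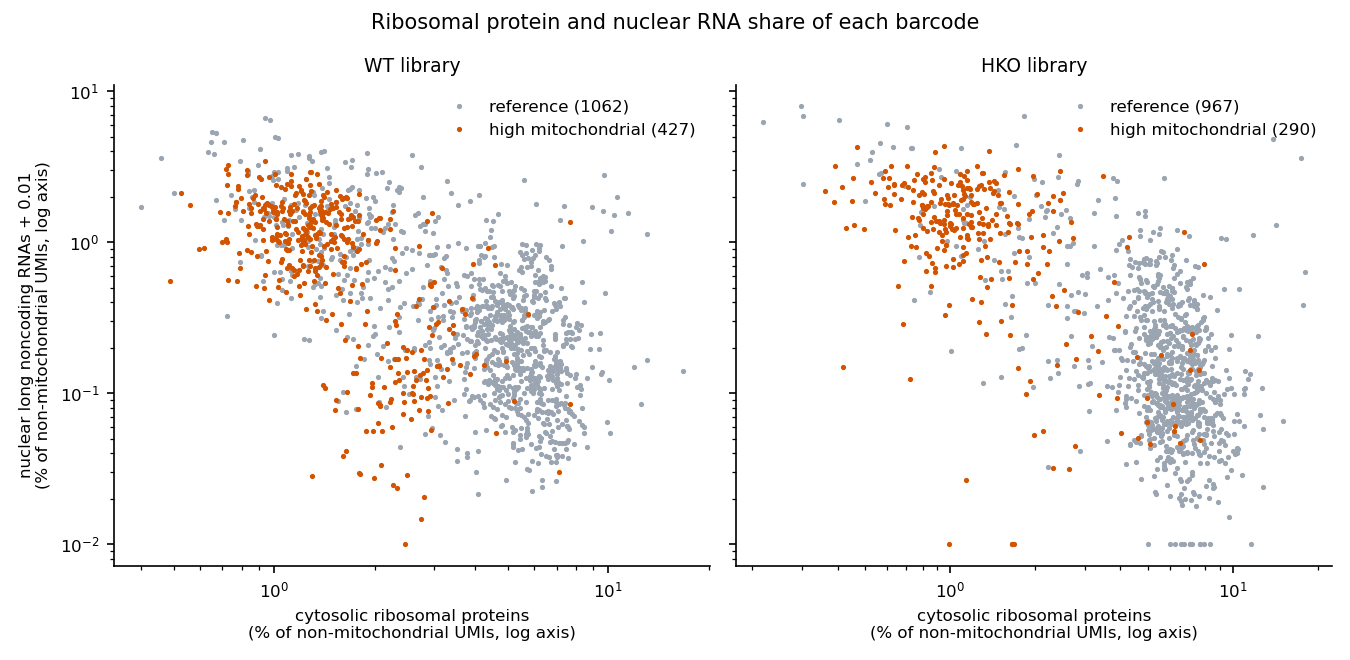
Share of cytosolic ribosomal proteins (x axis) and of nuclear-retained long noncoding RNAs plus 0.01 (y axis) in the non-mitochondrial UMIs of each barcode, both on log axes, for WT (left) and HKO (right). Orange points are high-mitochondrial barcodes and grey points reference barcodes. Most orange points lie at the upper left, at medians of 1.38% and 1.00% in WT and 1.14% and 1.33% in HKO, where some grey points also lie.

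The genotypes were set side by side within each class, without a test. In high-mitochondrial barcodes, HKO exceeded WT by 2-fold or more for 111 genes (1.46%) and WT exceeded HKO by as much for 110 (1.45%), against 21 (0.277%) and 77 (1.02%) in the reference. The sums differ in size, since the HKO members held 1592922 non-mitochondrial UMIs and the WT reference 21844483, so counting error is larger in the members. Srebf1 had 81.0 CPM in HKO and 297.1 in WT members (ratio 0.273, 95% interval 0.226 to 0.326) and 35.4 and 143.8 in the reference (0.246, 0.222 to 0.272). The intervals of the genotype ratio overlapped between the classes for this gene. Mt1 was 2.35-fold in HKO members and 3.70-fold in the HKO reference. Malat1 was on opposite sides, at 1.18-fold (1.16 to 1.20) in members and 0.658-fold (0.651 to 0.666) in the reference. The median HKO over WT ratio of the nuclear subunits of complexes I to V was 0.842 in members, beside 1.06 over all genes, and 1.08 in the reference, beside 0.945 over all genes. Among 5 tested miR-33 targets, high-mitochondrial barcodes had 3 higher (Abca1, Ppargc1a and Cpt1a), Crot lower and Cyp7a1 without a call, a count too small to set apart from the 36.7% of all genes. With TMM scaling 2 were higher and 1 lower, and relative to all UMIs 0 were higher and 2 lower. Between genotypes, Abca1, the cholesterol exporter, was 1.14-fold in HKO in both classes. Crot, a peroxisomal carnitine acyltransferase, was 1.06-fold and 1.03-fold, and Cpt1a 1.68-fold and 1.38-fold. Ppargc1a had 86.0 CPM in HKO members against 68.9 in WT members, and 49.5 against 40.3 in the reference. Cyp7a1, the rate-limiting enzyme of bile acid synthesis, had 54.6 CPM in HKO members against 28.7 in WT members (1.90-fold, 1.44 to 2.49), and 81.8 against 24.0 in the reference (3.41-fold, 3.06 to 3.80).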

How the data were processed

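The data were 2 droplet libraries (10x Genomics 3' chemistry), 1 each of WT and HKO liver, with 130451427 UMIs in 30078 barcodes and 52563185 in 20000. The authors deposited UMI counts per gene and barcode, whole numbers without normalization, made with Cell Ranger 7.1.0 per the file headers. The submitters' processing notes name mm10, R 3.0 and Seurat 3. Annotation and intron options are not given in the sources used here.

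Counts of 32285 genes were read as deposited and summed per library and class. CPM are counts per 1000000 non-mitochondrial UMIs. Genes with a mean of at least 10 CPM were tested with edgeR 4.0.16 (glmQLFit and glmQLFTest, terms for library and class, norm factors 1, R 4.3.3). A call needed an adjusted p under 0.05. Mitochondrial genes, Alb and the 15 markers took no call. Ratios per library have exact conditional 95% intervals and fractions Clopper-Pearson intervals, which cover counting error only. A count of 0 was replaced by 3 counts in ratios. DESeq2 1.42.0 was an alternative. The script was tested on simulated data. Spans came from GENCODE M21 (GRCm38, the same assembly as mm10).

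The members, lists and tests were chosen with earlier results of these data known, and 5 lists were added after their values had been seen. Named genes were the 12 highest and 12 lowest by the smaller of both libraries' log2 ratios (mean of at least 50 CPM), the 2 highest and 2 lowest of each list, all members of lists of up to 7, the 13 mitochondrial genes, Alb and the 15 markers. Some genes that this rule names are not reported here. Other named markers show which were at 0. No doublet caller was run. The marker rule leaves out barcodes with several other markers, but it cannot see doublets of 2 hepatocytes and holds no antibody or hemoglobin gene. As an alternative, the deepest 5% were left out. WT barcode names were not used here, so barcodes shared by the libraries were not counted.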

Additional observations from a re-analysis of the deposited data

Results flagged for a closer look

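The following results had opposite signs in the 2 libraries, and the difference between libraries was not tested, since each genotype is 1 library. The median log2 ratio, high-mitochondrial over reference barcodes, of the 20 genes of mitochondrial DNA maintenance and RNA processing was -0.135 in WT and 0.153 in HKO. That of the 9 pericentral genes was 0.0972 in WT and -0.278 in HKO. Igkc, an antibody gene, had a log2 ratio of 3.88 in WT and -3.56 in HKO, and 1 barcode held 736 of the 809 UMIs of the WT members and another 2118 of the 2232 UMIs of the HKO reference.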

How the results depend on the processing

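The counts of 2780 higher and 1708 lower genes kept within 1.5 times under 12 and 13 of 16 other settings. They were 1766 higher with a depth-matched reference, 1625 higher and 1111 lower with barcodes thinned to 2500 UMIs, and 1490 and 2979 relative to all UMIs. Among genes of at least 50 CPM they were 1303 and 847, but only 3057 genes were tested there. These are 42.6% and 27.7% of the genes tested, above the 36.7% and 22.5% of the main setting. The numbers of genes at least 1.5-fold higher in both libraries (1851) and genes at least 1.5-fold lower in both libraries (1254) were 1068 higher with the matched reference and 506 and 2236 relative to all UMIs. They were 877 and 628 of the 3057 genes at 50 CPM. In 1 library alone they were 1953 to 2847 higher and 1442 to 1613 lower, the larger values without WT. The share of high-mitochondrial barcodes in percent, WT, was 25.2 at 10000 UMIs and 22.02 with no marker detected, and in HKO 10.1 at 10000 UMIs. Genes per barcode, high over reference, went from 1.04 (WT) and 1.11 (HKO) when thinned to 0.823 and 0.677 unthinned.

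Signs changed for few results. Relative to all UMIs, the medians turned to -0.0032 for plasma proteins, -0.013 for P450 enzymes and -0.0398 for miR-33 targets, and Cpt1a to -0.0412. With members from 20% on, the hemoglobin median went from -2.82 to 0.39, Hbb-bs 0.0031 and Cyp7a1 0.14. Cyp7a1 was 0.0452 with the matched reference, and Igkc -0.11 without the library term. The cause was not tested. Among named genes, calls of Cpt1a were lost under 11 settings and those of Uqcrc2, Mrps9 and Eci2 under 7 each. DESeq2 called 2200 higher and 1318 lower.

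Between genotypes, no test could be made. No paired analysis was possible because each genotype is 1 library. The classes were compared within libraries, and without the library term 2375 genes were higher and 1475 lower. Depth limits genes of few counts in the HKO members, and 1 residual degree of freedom limits every p-value.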
